A study of Rattus norvegicus with 2 samples.

Results

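The circadian clock genes examined here were 10 genes: Clock, the 3 period genes Per1, Per2 and Per3, the cryptochromes Cry1 and Cry2, the transcriptional repressor Bhlhe40, and the output factors Dbp, Tef and Nfil3. They were listed by name, with earlier results of these data known. All 10 were found among the 15168 genes that could be named on the arrays. They were represented by 15 probes on each array, of which 13 were well above background on both arrays, 1 on the control array only and 1 on neither. Every gene had at least 1 probe above background on both.

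RNA came from cultured stromal cells of bone marrow, the fibroblast-like cells that attach when marrow is plated. The control group was wild-type rats of the Sprague-Dawley strain, and the transgenic group was rats of the same genetic background bearing the human genes for angiotensinogen and renin. Cells of both groups were seeded at 150000 per well in 6-well plates and harvested below confluency, and total RNA was labelled with Cy3 for 1-colour Agilent arrays. There was 1 array per group, so the spread between animals or cultures is unknown, no test was possible and no p-value is given. The promoters that drive the transgenes, the number of animals behind an array, the time of harvest and the last change of medium are not given in the sources used here. A shift in the phase of the clock and a change in the mean level of a gene therefore cannot be told apart, and in RNA from whole cultures neither can fewer cells of a type and less RNA per cell.

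The mammalian clock is a transcriptional feedback loop present in most cells, including cultured fibroblasts and stromal cells. CLOCK pairs with BMAL1 and binds E-box elements in the Per, Cry, Dbp, Tef and Bhlhe40 genes, and the PER and CRY proteins accumulate and inhibit that pair. DBP and TEF are basic leucine zipper activators that bind D-box elements, and NFIL3, also called E4BP4, is a repressor that binds the same elements. Nfil3 and Per1 are also known to respond to signals from outside the loop, among them cytokines, cyclic AMP and glucocorticoid.

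Letters of such elements were looked for in the promoter windows of these genes. RefSeq windows of 300 bases on rat assembly GRCr8, from 250 bases before a start site to 50 after it, were available for 9 of the 10 genes in 10 windows. Cry1 was not matched. The windows were searched on both strands for the E-box CACGTG, its variant CACGTT, the D-boxes TTATGTAA and TTACGTAA, the RORE core TAGGTCA and the cyclic AMP element TGACGTCA. None of these motifs overlapped another in the stretches printed here. In the stretches below, printed in the direction of transcription with each match in capitals, Per2 is shown because it alone of the 9 matched genes held a D-box in its window, and Cry2, Tef and Bhlhe40 because they held an E-box or its variant. The Per2 stretch is chr9:99497025-99497210 on the minus strand, the Cry2 stretch chr3:98860619-98860674 on the minus strand, the Tef stretch chr7:115206604-115206659 on the plus strand and the Bhlhe40 stretch chr4:143174205-143174260 on the plus strand.
Per2: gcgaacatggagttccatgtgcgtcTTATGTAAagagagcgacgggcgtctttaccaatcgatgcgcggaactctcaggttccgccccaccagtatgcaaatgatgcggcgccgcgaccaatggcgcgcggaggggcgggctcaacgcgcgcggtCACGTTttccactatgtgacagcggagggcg
Cry2: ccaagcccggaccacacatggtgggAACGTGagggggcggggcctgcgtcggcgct
Tef: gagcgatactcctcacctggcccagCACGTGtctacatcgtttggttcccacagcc
Bhlhe40: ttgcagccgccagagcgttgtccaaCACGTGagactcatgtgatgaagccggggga

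The D-box of Per2 began 192 bases and its E-box variant 62 bases before the start site. The D-box TTATGTAA was present in 0.893% of all 33469 windows in the table, and the palindrome TTACGTAA in 0.12%, in none of the windows of these genes. The E-box CACGTG began 198 bases before the start site in Tef and 220 in Bhlhe40, and 6.42% of all windows held one. The variant of Cry2 lay on the opposite strand, 212 bases before the start site, and 4.83% of all windows held the variant. No match to any of the motifs was present in the windows of Per1, Per3, Clock, Dbp or Nfil3. That says only that these letters are not in these windows, and each match is a match of letters, not a measured binding site.

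The window of Nfil3, chr17:12432126-12432425 on the plus strand, is printed whole because this gene had the largest difference of the 10. It contains none of the motifs searched, so no letter is in capitals.
Nfil3: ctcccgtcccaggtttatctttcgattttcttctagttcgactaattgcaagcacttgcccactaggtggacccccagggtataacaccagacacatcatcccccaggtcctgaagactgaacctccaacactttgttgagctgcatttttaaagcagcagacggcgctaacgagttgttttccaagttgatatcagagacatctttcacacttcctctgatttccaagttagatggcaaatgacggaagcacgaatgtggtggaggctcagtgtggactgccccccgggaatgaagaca

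Of the 10 clock genes, 1 had a signal 2-fold or more above control in the transgenic array, 1 had a signal 2-fold or more below it and 8 lay within 2-fold. The gene that was higher was the D-box repressor Nfil3, by 8.66-fold, and the gene that was lower was Clock, by 2.70-fold. Values are processed signals in scanner units, and a difference is transgenic minus control in log2 after the 75th percentile of each array, 905 units in control and 1080 in transgenic, was subtracted. A 2-fold size rule stood in for a test. Over all 15504 genes or unmatched transcripts above background on both arrays, 10.5% were at least 2-fold higher and 10.3% at least 2-fold lower, so the share of clock genes past the rule in each direction was near that of genes at large. The median difference of the 10 genes was 0.27 log2, with 6 above 0 and 4 below, beside a median of -0.07 log2 over all genes. The 8 genes inside the rule ranged from -0.22 log2 in Per2 to 0.59 log2 in Cry2. The error that the scanner software assigns to the signals, combined over both arrays, was 0.20 to 0.31 log2 for the difference of a clock gene. It covers the measurement of spots and not the variation between cultures. Differences larger than 2 such errors were found for 4 of the 10 genes, namely Nfil3, Clock, Cry2 and Bhlhe40. Over all genes 53.4% differed by more than 2 such errors, so passing this mark does not set a clock gene apart.

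**Figure D1:**
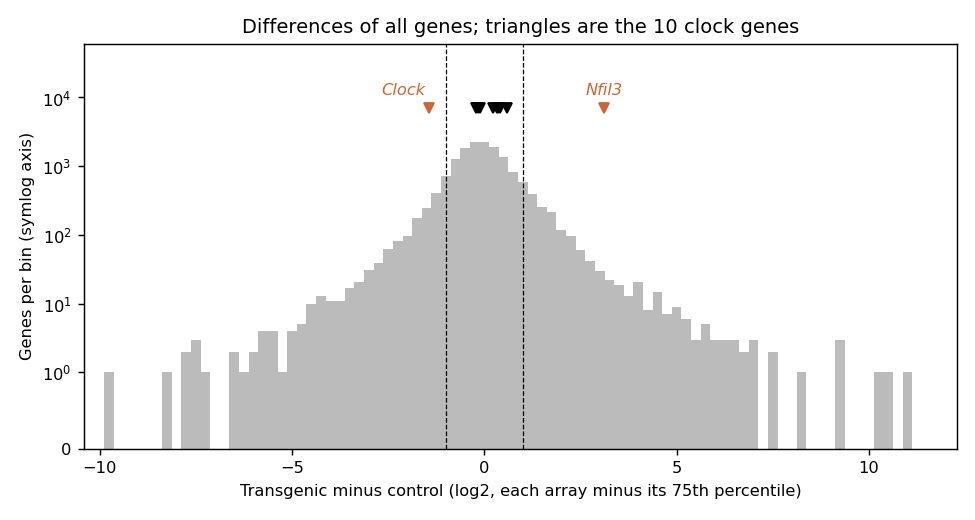
Histogram of the difference between arrays (log2, transgenic minus control) over the 15504 genes or transcripts above background on both arrays, on a symlog count axis, with the 10 clock genes as triangles and the 2-fold rule as dashed lines. Nfil3 at 3.11 and Clock at -1.43 lie outside the lines, and the other triangles lie between -0.22 and 0.59.

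CLOCK is the subunit that pairs with BMAL1 to activate the loop. The main probe of Clock had 2 spots, which gave 123 and 134 units in control and 48.0 and 67.3 units in transgenic, so the spots of the arrays did not overlap. The difference was -1.43 ± 0.23 log2 (software error), and 5.06% of all genes had a lower value. The signal is not far above background, and the transgenic spots had a standard deviation of 0.34 log2, the widest of the clock probes above background on both arrays. A second Clock probe with 1 spot was dimmer still, at 18.7 units in control and 13.8 units in transgenic, where it was not well above background. It gave a bound of at least 1.40-fold in the same direction. The call for Clock was lost under 3 alternatives. The difference was -0.93 log2 with normexp background correction of the spot median, -0.84 log2 in the authors' deposited table and -0.45 log2 with spike-in scaling, all inside the 2-fold rule.

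The period genes encode the inhibitory arm of the loop. The main probe of Per1 was dim, with spots of 36.4 and 37.0 units in control and 37.2 and 41.2 units in transgenic, a difference of -0.16 ± 0.31 log2. Per2 was measured by 10 spots on each array. In control these ran from 101 to 139 units with a median of 119 units, and in transgenic from 100.2 to 136 units with a median of 119 units. The spots overlapped almost fully before scaling, and the scaled difference was -0.22 ± 0.21 log2. For both Per1 and Per2 the difference was smaller than 2 software errors. Per2 is the gene whose window above holds a D-box.

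Per3 had 3 probes, all matched to the same transcript. The brightest gave 133 and 135 units in control and 199 and 206 units in transgenic, a difference of 0.34 ± 0.21 log2. A single spot of the next probe gave 26.0 units in control and 35.2 in transgenic, 0.18 ± 0.32 log2. The remaining probe, at 16.6 and 14.3 units, was not well above background on either array and gives no difference. The 2 measured probes of Per3 thus lay on the same side of 0, with an error that spanned 0 for the dimmer one.

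The cryptochromes CRY1 and CRY2 are the partners through which PER proteins repress CLOCK and BMAL1. Cry1 spots gave 502 and 531 units in control and 565 and 568 units in transgenic, which after scaling was a difference of -0.12 ± 0.20 log2. Cry2 spots gave 105 and 117 units in control and 179 and 221 units in transgenic, a difference of 0.59 ± 0.21 log2. Relative to Cry1 on the same array, where a constant shift of an array cancels, Cry2 was 0.71 ± 0.29 log2 higher in transgenic than in control, and from 0.35 (normexp) to 0.74 log2 (quantile scaling) over the alternatives. Cry2 moved closer to 0 with normexp (0.32 log2) and in the authors' deposited table (0.37 log2).

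BHLHE40, also called DEC1, is a repressor that competes with CLOCK and BMAL1 for E-boxes and is also induced by low oxygen. Its spots gave 372 and 386 units in control and 590 and 614 units in transgenic. The spots did not overlap, and the difference was 0.41 ± 0.20 log2 or 1.33-fold, inside the 2-fold rule.

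**Figure D2:**
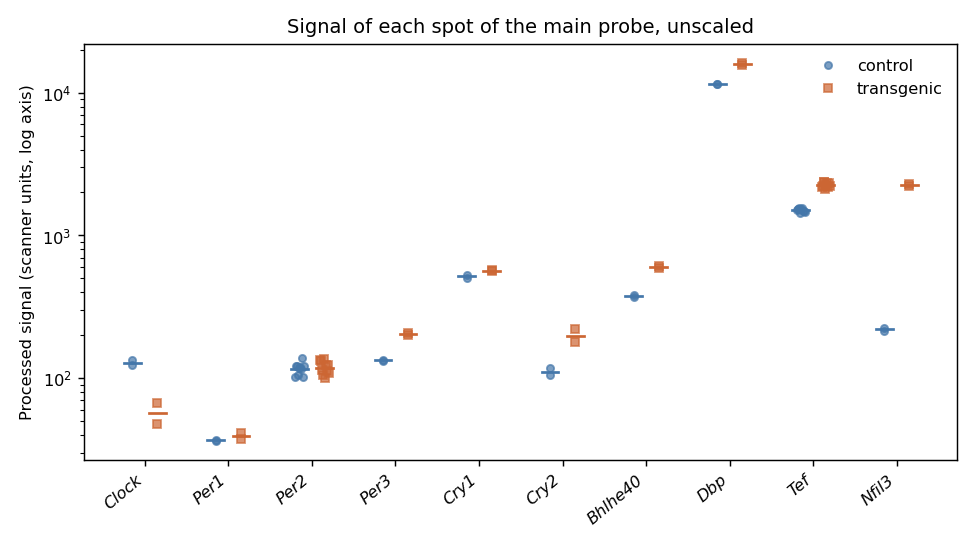
Processed signal (scanner units, log axis, not scaled between arrays) of every spot of the main probe of each clock gene, with circles for control, squares for transgenic and a bar at the geometric mean. Nfil3 goes from 219 to 2267 units and Clock from 129 to 56.8 units, while the 10 Per2 spots of each array cover the same range; levels are not comparable between genes because probes differ in efficiency.

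The output factors showed the widest contrast. Dbp, whose protein activates D-box genes and whose RNA is among the most strongly rhythmic in many tissues, had 3 probes. The brightest gave 11489 units on both control spots and 15708 and 16187 units on the transgenic spots, a difference of 0.22 ± 0.20 log2. The other Dbp probes, with 1 spot each, gave 0.21 and 0.35 log2, so the 3 probes differed among themselves by less than the software error. Tef, the related activator, was measured by 10 spots. These ran from 1432 to 1564 units in control, with a median of 1513, and from 2103 to 2356 units in transgenic, with a median of 2242. No Tef spot of one array fell in the range of the other before scaling, and the scaled difference was 0.33 ± 0.20 log2 or 1.25-fold. The third factor of the D-box family on most lists of outputs, Hlf, had no probe that could be named here.

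Nfil3, the repressor that binds the same elements, stood apart from both activators. Its spots gave 215 and 224 units in control and 2236 and 2298 units in transgenic. The difference of 3.11 ± 0.21 log2 placed it at rank 152 from the top among the 15504 genes, with 0.974% of genes showing a larger value. Relative to Dbp on the same array, Nfil3 was 2.90 ± 0.29 log2 higher in transgenic than in control, a 7.44-fold shift in the ratio of repressor to activator RNA. Relative to Tef the shift was 2.79 ± 0.29 log2 or 6.90-fold. A constant shift of an array cancels in these ratios. Over the alternatives the first ran from 2.44 to 2.92 log2 and the second from 2.43 to 2.80 log2. Across all alternatives in which Nfil3 was measured its difference stayed between 2.75 and 4.10 log2. It rests on 1 probe, so no second probe could be compared.

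**Figure D3:**
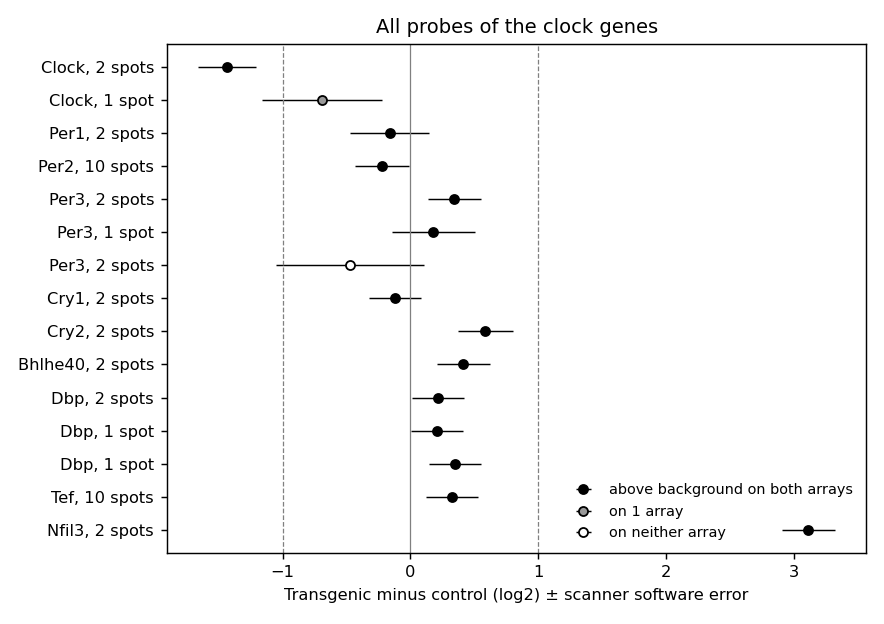
Difference between arrays (log2, transgenic minus control) of all 15 probes of the clock genes, with bars of ± 1 scanner software error and dashed lines at 2-fold. The 3 Dbp probes lie together at 0.21 to 0.35, and the Nfil3 probe lies at 3.11; filled points are above background on both arrays, the grey point on 1 array and the open point on neither.

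Genes that complete the core loop were measured beside the 10. Of 11 such partners, 7 were above background on both arrays and 4 had no named probe. On their main probe 0 were past 2-fold in either direction, beside 10.5% of all genes higher and 10.3% lower. Their median difference was 0.36 log2. Bmal1, the partner of CLOCK, gave 422 units in control and 946 in transgenic on its main probe, 0.91 ± 0.20 log2, and 49.7 and 171 units on a dimmer probe, 1.53 ± 0.24 log2. The mean over both probes was 1.22 log2. Relative to Bmal1 on the same array, the difference of Clock was -2.34 ± 0.30 log2, a 5.07-fold shift in the ratio of the 2 partners. It was -1.62 log2 (3.07-fold) in values from the authors' deposited table, -1.72 log2 (3.29-fold) with normexp on the spot median and -2.65 log2 with the mean over probes. Relative to Cry1 and Per2 the difference of Clock was smaller, at -1.31 and -1.21 log2. In the authors' deposited table these were -0.80 and -0.71 log2. Bmal2 differed by 0.85 log2, and Nr1d1, which encodes the receptor REV-ERB alpha that represses Bmal1, by 0.56 log2. The median of these partners was below 0 with normexp on the spot median (-0.05 log2). When only the brighter part of the genes was kept, 1 of the 7 partners remained. That partner was Cipc, at its main value of -0.18 log2, which does not stand for the list. Nr1d2 differed by 0.36 log2 (-0.05 log2 with normexp), Cipc by -0.18 log2 (-0.57 log2 on a dimmer probe) and Ciart by -0.55 log2.

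Npas2 encodes a paralogue of CLOCK that can take its place beside BMAL1, and its 2 probes disagreed. The probe above background on both arrays gave 202 units in control and 179 in transgenic, -0.43 ± 0.21 log2. The other gave 13.3 units in control, below background, and 267 units in transgenic, a bound of at least 14.6-fold higher. Both probes carry the same transcript accession, so the data give no single direction for Npas2. With spike-in scaling the first probe also turned to 0.55 log2.

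The stretch of the Bmal1 window around its only match, chr1:176766287-176766343 on the plus strand, is shown because ROR and REV-ERB receptors bind such elements in Bmal1. The RORE core, in capitals, began 16 bases before the start site, and 2.63% of all windows held one.
Bmal1: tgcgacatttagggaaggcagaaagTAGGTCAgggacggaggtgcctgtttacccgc

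Genes that modify or degrade the clock proteins were measured next, to be read against the 10.5% of all genes that were higher and the 10.3% that were lower. Of 17 kinases, ubiquitin ligases, proteases and related genes, 14 were measured on both arrays. None passed the 2-fold rule upwards (0 of 14) and 1 passed it downwards, and the median was -0.14 log2. The gene that was lower was Prkaa2, a catalytic subunit of AMP-activated protein kinase, which can mark CRY proteins for destruction. Its signal was 85.0 units in control and 20.6 in transgenic, -2.30 ± 0.36 log2 or 4.91-fold, and it was -0.86 log2 in the authors' deposited table, inside the rule. Siah2, a ubiquitin ligase, reached a signal above background on the transgenic array alone and was at least 2.76-fold higher there. Among the 929 genes detected on the transgenic array alone, 46.2% had a bound of at least 2-fold. Csnk1d, a casein kinase that phosphorylates PER, had probes at 0.12 and 1.35 log2. Spsb4 differed by -0.29 log2 on a bright probe, whereas a dim probe, above background in control only, was at least 4.17-fold lower. Of 781 genes above background in control only, 63.0% had a bound of at least 2-fold.

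Of 12 cofactors of the PER, CRY and REV-ERB complexes, 7 were measured. Past 2-fold were 0 of these, beside 10.5% of all genes higher and 10.3% lower. Their median was 0.23 log2 (-0.03 log2 with normexp). They ranged from -0.67 log2 in Crebbp to 0.53 log2 in Hdac3, the histone deacetylase of the REV-ERB complex. In this list 5 genes had no named probe.

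Of 15 genes often found to follow the clock in peripheral tissues, 12 were measured. The 2-fold rule was passed upwards by 1 of 12, beside 10.5% of all genes, and downwards by 2 of 12, beside 10.3%. Their median was -0.20 log2. Por, which donates electrons to cytochrome P450 enzymes, was 6.41-fold higher, at 1102 units in control and 8423 in transgenic. Klf10, a Kruppel-like factor, was 3.30-fold lower, and Cdkn1a, the cell cycle inhibitor p21, was 2.38-fold lower on its brightest probe but differed by -0.48 log2 on another. Nampt, which makes a precursor of NAD and is driven by CLOCK and BMAL1, differed by 0.54 log2, and Wee1, a mitotic kinase with E-boxes, by -0.66 log2. Genes on both sides of 0 were thus present among these outputs.

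All 12 genes of the signals that reset the clock were measured. The rule was passed upwards by 3 of 12, beside 10.5% of all genes, and downwards by 1 of 12, beside 10.3%, and their median was 0.01 log2. Crem, whose short products repress cyclic AMP response genes, had 5 probes. The brightest gave 648 units in control and 3581 in transgenic, 4.63-fold higher, and 3 more probes above background on both arrays gave from 2.16 to 2.80 log2. The fifth was detected on the transgenic array alone and gave a bound of at least 4.98-fold higher. Sik1, a kinase induced by cyclic AMP that limits resetting of the clock by light, was 6.63-fold higher, at 120 units in control and 949 in transgenic. Dusp1, an immediate early phosphatase, was 2.81-fold higher, and Nr3c2, the mineralocorticoid receptor, 2.77-fold lower. Nr3c1, the glucocorticoid receptor, differed by -0.32 log2 on its main probe and by -0.92 log2 on a dimmer one. Its targets Fkbp5, Sgk1, Tsc22d3 and Klf9 differed by 0.94, 0.89, 0.27 and -0.24 log2.

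A stretch of a Crem promoter window, chr17:58984716-58984773 on the plus strand, is shown because 4 Crem probes above background on both arrays lay on the same side. It holds the cyclic AMP element, in capitals, 56 bases before that start site. Another Crem window held 2 such elements, and 1.83% of all windows held at least 1. The remaining Crem window and the window of Sik1 held no match to any of the motifs.
Crem: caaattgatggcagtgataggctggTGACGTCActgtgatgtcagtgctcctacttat

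**Figure D4:**
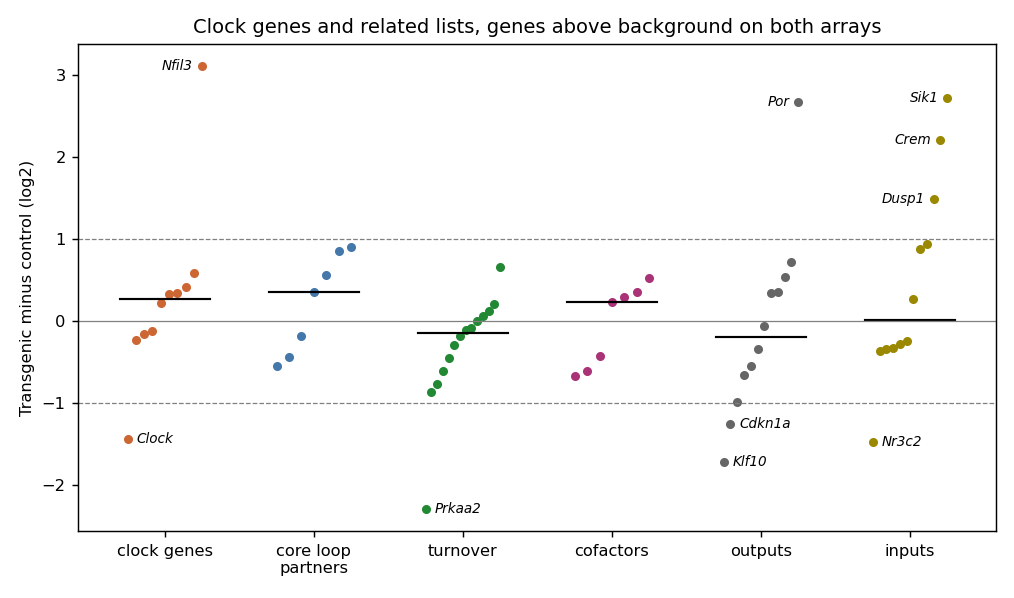
Difference between arrays (log2, transgenic minus control) of the genes above background on both arrays in the clock group and the 5 related lists, with a bar at each median and dashed lines at 2-fold. Medians lie between -0.20 and 0.36 log2, and the named points are the genes past 2-fold on their main probe.

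The balance between higher and lower genes depended on how the arrays were scaled. With the arrays scaled on 8 E1A spike-in probes, the median of all genes moved to 0.91 log2, and genes that were higher made up 94.8% of those past 2-fold in place of 50.6%. On that scale 6 clock genes were at least 2-fold higher (Nfil3, Cry2, Bhlhe40, Per3, Tef and Dbp), none was lower, and Per1, Per2 and Cry1 changed sign to 0.82, 0.76 and 0.87 log2. Relative to the median gene on the same scale, Nfil3 was at 3.18 log2 and Clock at -1.36 log2, and the other 8 ran from -0.15 to 0.66 log2. Of the related genes named above, Ciart, Cipc, Spsb4, Crebbp, Wee1, Nr3c1 and Klf9 also turned positive on that scale, as did the medians of the turnover and output lists. Klf10 (-0.74 log2), Cdkn1a (-0.27 log2) and Nr3c2 (-0.49 log2) came inside 2-fold on it, and Nr3c2 was also inside in the authors' deposited table (-0.94 log2). The signs of differences inside 2-fold are therefore relative to the other genes of the array and are not amounts of RNA per sample.

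**Figure D5:**
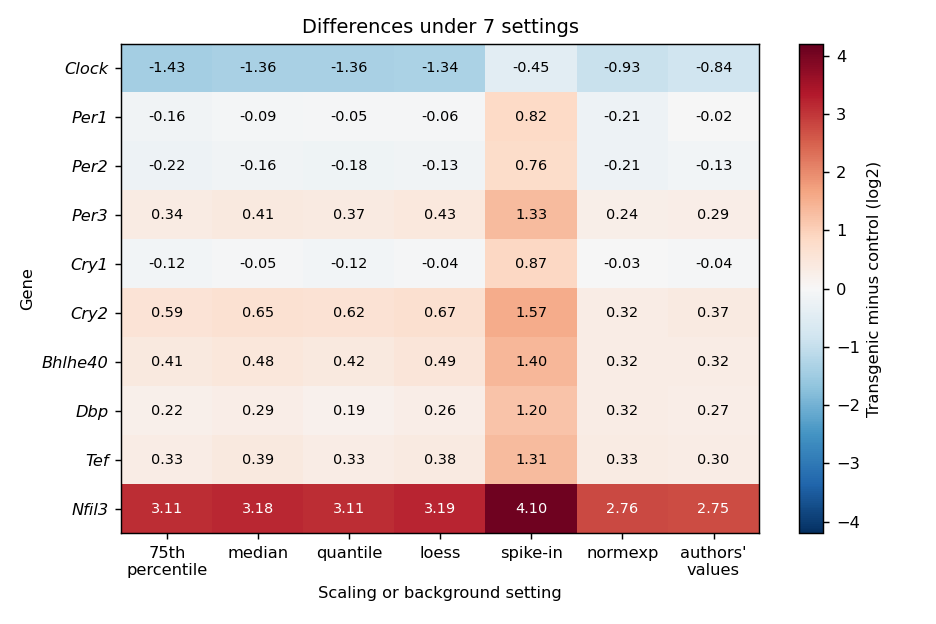
Difference between arrays (log2, transgenic minus control) of the clock genes, in rows, under the 75th percentile scaling used in the text and 6 alternatives, in columns. Nfil3 is between 2.75 and 4.10 in every column and Clock between -1.43 and -0.45, and the spike-in column is shifted upwards for all 10 genes.

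The cell type label was checked against markers. Of 10 stromal markers, 9 were above background on both arrays, and Vcam1 in transgenic only. Eng and Pdgfra were 5.22-fold and 3.30-fold higher, Itgb1 and Col1a2 2.48-fold and 2.11-fold lower, and the other 5, among them Thy1 and Col1a1, lay within 2-fold. The 2-fold rule was thus passed upwards by 2 of 9, beside 10.5% of all genes, and downwards by 2 of 9, beside 10.3%. Summed without scaling, the stromal signal was 390698 units in control and 274212 in transgenic. Most of that sum came from Col1a1 (111314 and 86945 units) and Col1a2 (194668 and 109843 units). The median difference of the 9 stromal markers was 0.25 log2, so the sum does not stand for the list. Of 10 macrophage markers, 6 were above background on both arrays, 2 in control only and 2 on neither. Of these 6, 4 were at least 2-fold lower, beside 10.3% of all genes, and 1 was higher, beside 10.5%. The remaining 1 was Csf1r, whose 2 probes differed by -0.51 and 0.61 log2. Of the 4 lower markers, Lyz2 and Tyrobp had the largest differences, at 151-fold and 46.1-fold lower. The marker that was higher was Cd68, at 602 units in control and 2152 units in transgenic, a difference of 1.58 log2. The unscaled summed signal of the macrophage markers above background on at least 1 array was 15869 units in control and 2876 in transgenic. Lyz2 made up 8372 units of the control sum and Cd68 2152 units of the transgenic sum, so this sum does not stand for the list either. The defining markers Ptprc and Itgam were the 2 at background on both arrays, and the part of such cells in the clock gene differences was not tested. Of the endothelial markers, Cdh5 was above background on both arrays (214 and 171 units), and Pecam1, Kdr and Tek on neither. The lymphocyte marker Cd3d was above background on both arrays (274 and 335 units), and Cd3e on neither. The erythroid marker Hbb, at 21.7 units in control, was above background in transgenic alone at 221 units, at least 8.52-fold higher, while a second Hbb probe and Alas2 were at background on both arrays. The part of these cells in the clock gene differences was not tested either.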

How the data were processed

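Gene expression was measured on 2 one-colour arrays on 1 slide, read in 1 scan per the file headers. The deposited scanner files hold intensity values on a linear scale, made with Agilent Feature Extraction 11.0.1.1 per the file headers, which subtracted background and corrected spatial trends without normalizing between arrays. The authors' processed values were deposited on a log2 scale for 23153 probes, with normalization and centring not given in the sources used here. Their medians were 7.20 and 7.18, and over 13619 probes their differences had r = 0.978, slope 0.815 and the same direction as those computed here.

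Outlier spots were left out (446 in control, 505 in transgenic, 0 of the clock genes), log2 signals were averaged per probe, and each array's 75th percentile was subtracted. No spot was saturated. A probe counted as above background if the software flagged more than 50% of its spots that way, which held for 60.2% and 60.8% of 30367 probes. Probes were named by RefSeq accession (GRCr8), with 18005 matched. The brightest probe stood for a gene, and all probes of the clock genes are given. Genes of the related lists were named when past 2-fold, by value or bound, and some others to fill a description after their values were seen. Bounds used the larger of 2 signals on the dim array, the probe's and the lowest among detected probes (15.3 and 15.9 units). The members and lists were chosen with earlier results of these data known. Steps were tested on data simulated from the control array, which could not cover the spread between cultures. Python 3.11.15, pandas 2.3.3 and limma 3.58.1 (R 4.3.3) were used. The number of arrays limits the precision.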

Additional observations from a re-analysis of the deposited data

How the results depend on the processing

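No paired analysis was possible because each group had 1 array, and leaving out an array was not possible for the same reason. Nfil3 stayed past 2-fold in the same direction under every alternative in which it was measured, from 2.75 to 4.10 log2. Clock kept its direction but fell inside 2-fold with spike-in scaling (-0.45 log2), normexp (-0.93) and the authors' processed values (-0.84), and the cause was not tested. Clock genes past 2-fold, 1 higher and 1 lower, became 6 and 0 with spike-in scaling, beside 44.75% and 2.43% of all genes. They became 0 and 0 in the brighter part of the genes, where 2 of the 10 remained. No clock gene was lower with normexp, the authors' values or a 4-fold rule (0 in each). With a 1.5-fold rule 2 of the 10 were higher, Nfil3 and, at 1.502-fold, Cry2, beside 2954 of 15504 genes. The median of the 10 clock genes was 1.26 log2 with spike-in scaling. Over all genes 1628 were higher and 1591 lower. These counts were 6938 and 377 with spike-in scaling, 905 and 908 with the authors' values, 2674 and 2900 without a background filter, 792 and 599 in the brighter part, 2954 and 3489 with a 1.5-fold rule and 443 and 368 with a 4-fold rule. Normexp was run on the spot median, an alternative chosen after seeing the data, because the files used here hold no spot mean. The other 66 values kept their call, stayed within 1.5 times the count or, for medians, moved by less than the software error. Several could not change, because Nfil3 and Clock each had 1 probe above background on both arrays and no clock gene spot was an outlier. No gene past 2-fold on its main probe among those named changed sign under any alternative run, whereas many inside 2-fold did with spike-in scaling. Dim probes limit Per1, Per2, Per3, Cry2 and Clock.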
